A study of Saccharomyces cerevisiae with 12 samples.

Results

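The genes described here encode the subunits of TRiC, the cytosolic chaperonin of yeast, also called CCT. They were chosen by name as TCP1 and CCT2 to CCT8, 8 of the 6352 genes measured, and all 8 were found in each of the 7 comparison tables. The study made RNA-seq libraries of budding yeast, Saccharomyces cerevisiae, 12 in all and 2 in each of 6 groups, every strain being BY4741, a haploid laboratory strain, or a deletion made in it. The groups were Δscd6 cells (SCD6 deletion) in azide and untreated, Δsbp1 cells (SBP1 deletion) in azide and untreated, and wild type BY4741 cells in azide and untreated. Azide means 0.5% sodium azide for 30 minutes, added to cells growing in YEPD, a rich glucose medium. Azide blocks cytochrome c oxidase and ATP synthesis and makes yeast form RNA granules, and Scd6 and Sbp1 are RNA-binding proteins of such granules that repress translation. The labels do not say that the libraries of a group came from separate cultures, so p-values measure a spread between libraries that may be technical only.

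TRiC is a double ring of related ATPase subunits that encloses unfolded proteins, and each subunit is encoded by its own essential gene and fills a fixed place in each ring. Going round the ring the order is TCP1, CCT3, CCT6, CCT8, CCT7, CCT5, CCT2 and CCT4. Its best known substrates are actin and the tubulins, which the cochaperone prefoldin delivers to it, and it also folds proteins with WD40 propellers.

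The subunit genes lie apart on the genome, on chromosomes IV, IX and X, and their upstream sequences are shown because a short stretch is common to all of them. In RefSeq assembly R64, which may not be the build the authors used, each promoter was read as 250 bases before to 50 bases after the first base of the start codon. The letters GTGGCNA, on either strand and wholly before the start codon, were present in all 8 TRiC promoters and in 454 of 6001 promoters (7.57%). These letters were picked after the TRiC sequences had been read, so the match is a description and has no test. In CCT6 they form part of GGTGGCAAA, the sequence known as the proteasome-associated control element, which 1.13% of all promoters held wholly before the start codon. The windows of 27 bases below are written 5′ to 3′ on the strand that reads GTGGCNA, with that match in capitals and its place counted from the start codon. Where a promoter held several matches, the one with A or G as its free letter that lies nearest before the start codon is shown.
TCP1 (chrIV:887073-887099, plus strand, match from -149 to -143): cttgtcctaaGTGGCAAagaactgaaa
CCT2 (chrIX:83189-83215, plus strand, match from -103 to -97): tctcttcgcgGTGGCGAgtttaaaaga
CCT3 (chrX:407442-407468, minus strand, match from -106 to -100): actttattgaGTGGCGAtttgctattt
CCT4 (chrIV:199860-199886, minus strand, match from -126 to -120): gcctttcttgGTGGCGAaacgaaaaaa
CCT5 (chrX:555821-555847, plus strand, match from -83 to -77): cttggtggatGTGGCAAatgaggtgtg
CCT6 (chrIV:836237-836263, plus strand, match from -174 to -168): ttttgctttgGTGGCAAaattttcgct
CCT7 (chrX:207711-207737, plus strand, match from -156 to -150): taatatttaaGTGGCGActttttcatc
CCT8 (chrX:421753-421779, minus strand, match from -106 to -100): acctccgctaGTGGCAAaaaaaagtga

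Motifs known from stress and growth genes were also searched on both strands. The stress response element AGGGG was in 0 TRiC promoters (21.6% of all promoters), and the heat shock element letters GAANNTTC were in 0 as well (11.8%). The other heat shock arrangement, TTCNNGAA, was in the CCT7 promoter alone among the 8 (12.9% of all promoters). The growth-linked elements AAAATTTT and GATGAG were found in CCT5 and CCT6 (9.03% of all promoters) and in CCT2 and CCT5 (20.4%). The CCT2 match to GATGAG begins at -1 and runs across the start codon, so it is not an upstream one. The whole promoters shown are those of CCT6 and CCT7, the genes with the lowest azide fold changes in both deletion strains, and that of CCT8, which passed the test in no strain. Capitals mark every match to GTGGCNA and to the stress and growth motifs. In CCT6 the match to AAAATTTT overlaps the match to GTGGCNA, and in CCT8 a match to GTGGCNA on the opposite strand lies inside the coding sequence.
CCT6 (chrIV:836171-836470, plus strand): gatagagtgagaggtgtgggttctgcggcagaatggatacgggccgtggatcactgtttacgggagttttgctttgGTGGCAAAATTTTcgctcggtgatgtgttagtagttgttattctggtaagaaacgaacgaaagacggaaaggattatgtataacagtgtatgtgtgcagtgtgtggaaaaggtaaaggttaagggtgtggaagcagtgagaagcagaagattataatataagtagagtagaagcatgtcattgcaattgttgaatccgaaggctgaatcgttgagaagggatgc
CCT7 (chrX:207627-207926, plus strand): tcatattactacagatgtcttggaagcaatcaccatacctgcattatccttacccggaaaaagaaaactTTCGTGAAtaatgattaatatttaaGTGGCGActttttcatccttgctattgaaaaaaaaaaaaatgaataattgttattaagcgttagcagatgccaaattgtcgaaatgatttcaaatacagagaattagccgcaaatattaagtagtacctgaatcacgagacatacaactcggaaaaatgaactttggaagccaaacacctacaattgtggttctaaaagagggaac
CCT8 (chrX:421614-421913, minus strand): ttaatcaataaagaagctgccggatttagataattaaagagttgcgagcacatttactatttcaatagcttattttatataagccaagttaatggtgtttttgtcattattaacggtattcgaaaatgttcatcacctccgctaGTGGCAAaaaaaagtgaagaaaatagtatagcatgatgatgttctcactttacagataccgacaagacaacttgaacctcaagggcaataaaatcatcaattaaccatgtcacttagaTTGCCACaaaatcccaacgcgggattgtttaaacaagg

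All 8 messages were abundant. The mean normalised count over libraries in the authors' deposited table ran from 2241 for CCT7 to 5178 for CCT6, against a median of 589 over all genes, and each subunit gene stood above at least 84.4% of genes. A level per group was reconstructed from that mean and the fold changes and divided by the coding length (1584 to 1707 bases in R64), since values per library are not used here. On this scale of normalised counts per kilobase, CCT7 stood at 967 in azide-treated and 1679 in untreated Δscd6 cells, at 657 and 1869 in Δsbp1 cells, and at 752 and 2210 in wild type cells. It was the lowest of the 8 in each azide group, while CCT3 was the lowest in each untreated group. CCT6 stood at 2275 in azide-treated and 4819 in untreated Δscd6 cells, at 1309 and 4055 in Δsbp1 cells, and at 2512 and 3964 in wild type cells. It was the highest of the 8 in all 3 untreated groups, and CCT8 was the highest in azide in both deletion strains. CCT8 stood at 2512 in azide-treated and 2408 in untreated Δscd6 cells, at 1886 and 2536 in Δsbp1 cells, and at 2228 and 2657 in wild type cells. The highest subunit exceeded the lowest 2.60 times in azide-treated and 2.89 times in untreated Δscd6 cells, 2.87 and 2.28 times in Δsbp1 cells, and 3.34 and 1.88 times in wild type cells.

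**Figure D1:**
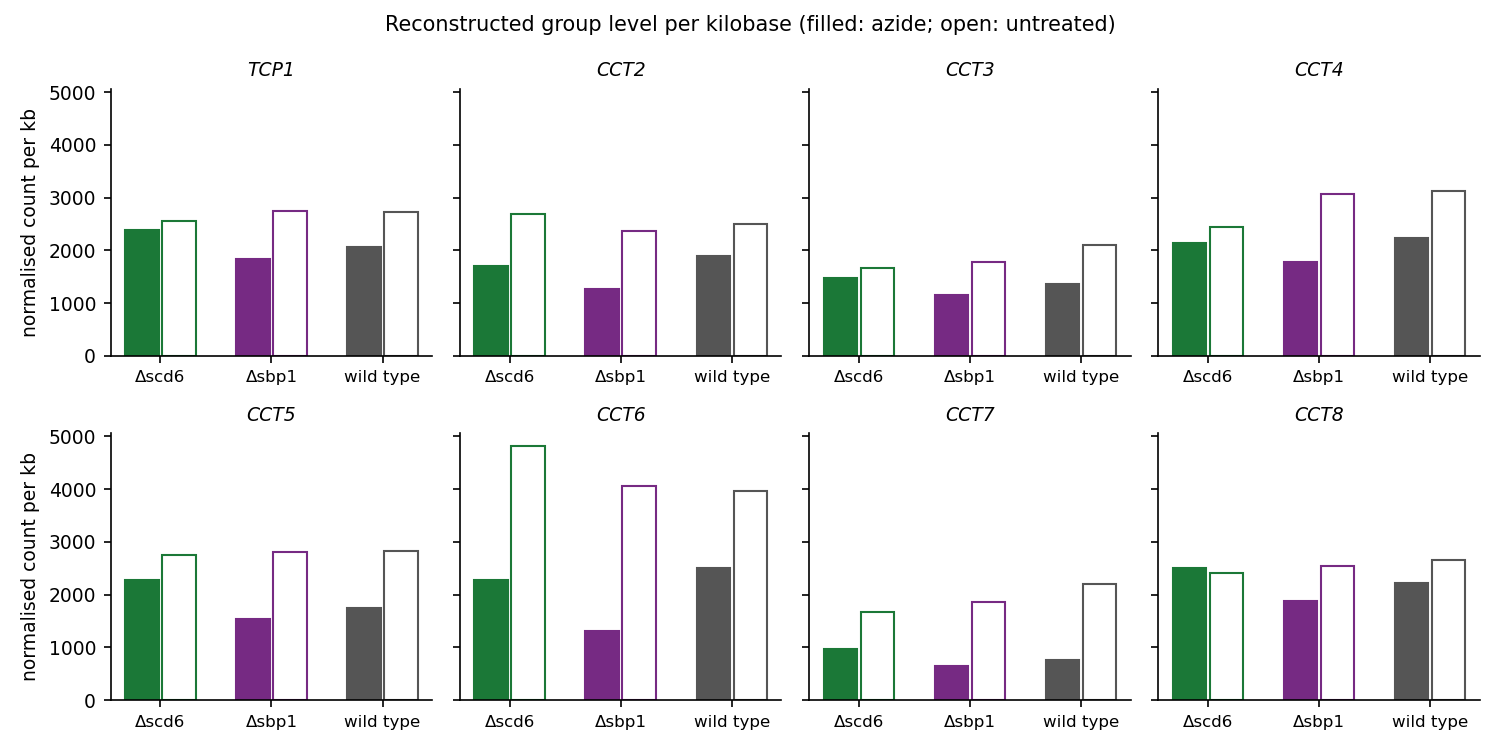
Reconstructed level of each TRiC subunit gene in normalised counts per kilobase of coding sequence, with azide (filled) left of untreated (open) in Δscd6, Δsbp1 and wild type cells. Bars keep the authors' scaling and have no error because no values per library are used. CCT6 is tallest in the untreated groups (3964 to 4819), and CCT7 is shortest in the azide groups (657 to 967).

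Most neighbours in the order of levels did not differ beyond their error. The standard error that a fold change and its p-value imply ran from 0.202 to 0.339 on the log2 scale for these genes. The error of a group's level was taken from the gene's median over the comparisons, with the variance split equally between both groups. It covers the spread of a gene between libraries and not differences between genes in how fully their reads are counted. The pairs were formed by sorting these same levels. In the azide groups the only one of 7 neighbouring pairs that differed by more than its 95% interval was CCT3 over CCT7, by 0.61 log2 in Δscd6, 0.82 in Δsbp1 and 0.86 in wild type cells. In untreated Δscd6 cells CCT6 over CCT5 (0.81) and CCT8 over CCT7 (0.52) did so, and in untreated Δsbp1 and wild type cells 0 of 7 pairs did. The 8 levels per kilobase summed to 15742 in azide-treated and 21006 in untreated Δscd6 cells (74.9%), to 11448 and 21232 in Δsbp1 cells (53.9%), and to 14797 and 22119 in wild type cells (66.9%). These sums keep the authors' scaling. Giving every group the same sum of normalised counts over all genes would raise azide levels relative to untreated ones. The shift is 0.39 log2 in Δscd6, 0.28 in Δsbp1 and 0.15 in wild type cells. The share of CCT7 in the sum was 6.15% in azide and 7.99% untreated in Δscd6 cells, 5.74% and 8.80% in Δsbp1 cells, and 5.08% and 9.99% in wild type cells. In these bulk samples fewer cells expressing a gene and less RNA per cell cannot be told apart.

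In Δscd6 cells 3 of the 8 subunit genes fell in azide, CCT6, CCT7 and CCT2, none rose, and none of the 3 calls held when all groups were scaled to equal totals. A rise or fall means an adjusted p under 0.05 in the authors' deposited table, and by that rule 20.4% of all genes fell and 22.1% rose in this strain. In the authors' deposited table CCT6 fell to 47.2% of its untreated level (log2 fold change -1.08, 95% interval -1.74 to -0.43, adjusted p = 0.00435), and CCT7 fell to 57.6% (-0.80, interval -1.23 to -0.36, adjusted p = 0.00166). CCT2 fell to 63.3% in the authors' deposited table (-0.66, interval -1.16 to -0.16, adjusted p = 0.0257). The others lay closer to 0 in the authors' deposited table, with CCT5 at -0.26 (adjusted p = 0.303), CCT4 at -0.19 (0.526), CCT3 at -0.17 (0.527), TCP1 at -0.11 (0.703) and CCT8 at 0.06 (0.842). The median of the 8 was -0.23, against -0.02 over all genes. Equal totals, which give every group the same sum of normalised counts over all genes, add 0.39 to every log2 fold change of this strain and bring the median of the 8 to 0.16. The median over all genes rises by the same 0.39, so the place of the 8 among all genes does not change. CCT6 was then at -0.69 (adjusted p = 0.0744), CCT7 at -0.40 (0.126) and CCT2 at -0.27 (0.395), and TCP1, CCT3, CCT4 and CCT5 were above 0.

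In Δsbp1 cells 7 of the 8 fell in azide, all but CCT8, where 27.4% of all genes fell and 27.5% rose. The median of the 8 was -0.82, against -0.02 over all genes. CCT6 was the lowest, at 32.3% of its untreated level in the authors' deposited table (log2 fold change -1.63, 95% interval -2.29 to -0.97, adjusted p = 7.0e-06). CCT7 fell to 35.1% in the authors' deposited table (-1.51, interval -1.95 to -1.06, adjusted p = 3.0e-10). CCT6 and CCT7 stand on either side of CCT8 in the ring, and CCT8 was at -0.43 (interval -0.84 to -0.02, adjusted p = 0.0700) in the authors' deposited table. The remaining falls in the authors' deposited table were of CCT2 by 0.90 (adjusted p = 0.00120), CCT5 by 0.85 (1.3e-04), CCT4 by 0.79 (0.00149), CCT3 by 0.62 (0.00623) and TCP1 by 0.58 (0.0102) on the log2 scale. Equal totals shift the log2 fold changes of this strain by 0.28, and the falls of TCP1 (adjusted p = 0.207) and CCT3 (0.151) then no longer passed.

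In wild type cells 3 of the 8 fell in azide, CCT7, CCT5 and CCT3, and none rose, where 20.6% of all genes fell and 21.3% rose. CCT7 fell to 34.0% of its untreated level in the authors' deposited table, a log2 fold change of -1.55 (implied SE 0.227, adjusted p = 1.4e-10), and 2.82% of genes had a value as low. CCT5 fell by 0.69 (adjusted p = 0.00321) and CCT3 by 0.62 (adjusted p = 0.00747) on the log2 scale in the authors' deposited table. The other subunits were below 0 too, without passing. In the authors' deposited table CCT6 was at -0.66 (adjusted p = 0.0970), CCT4 at -0.48 (0.0713), CCT2 at -0.41 (0.188), TCP1 at -0.40 (0.0991) and CCT8 at -0.25 (0.334). The median of the 8 was -0.55, against -0.01 over all genes. These 3 calls held with equal totals, a shift of 0.15 in this strain.

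**Figure D2:**
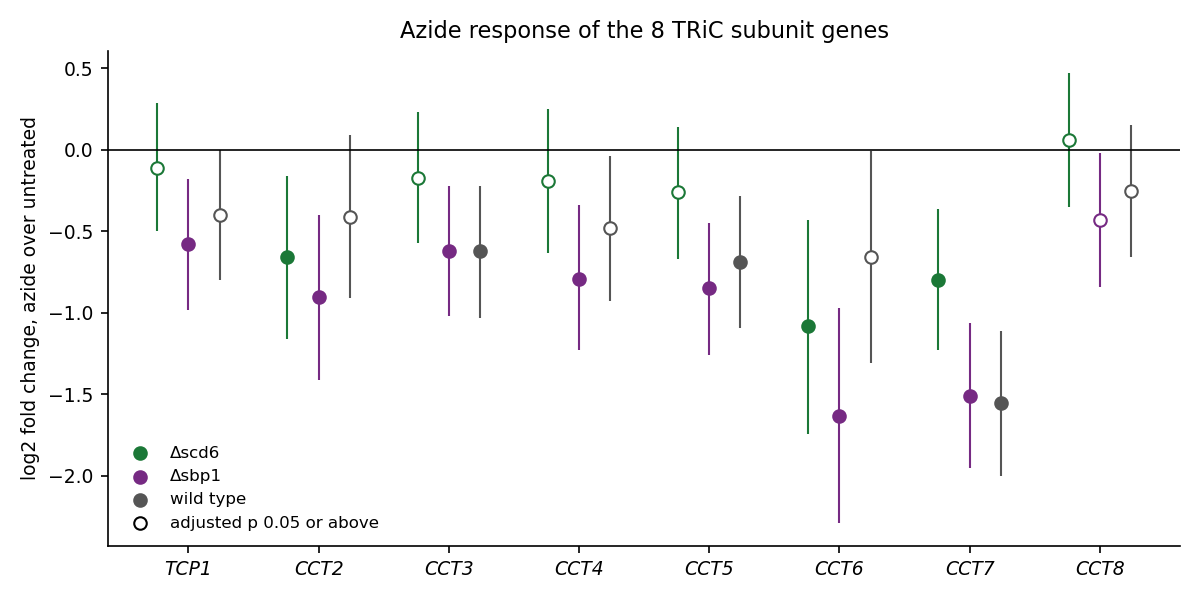
Log2 fold change of azide over untreated for each TRiC subunit gene in Δscd6, Δsbp1 and wild type cells, from the authors' deposited table, with 95% intervals from the implied standard error. Filled points passed an adjusted p of 0.05. CCT7 is filled in all 3 strains (-0.80, -1.51 and -1.55) and CCT8 in none, although equal totals would raise the Δscd6 points by 0.39 and leave none of them filled.

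CCT7 was the only subunit gene that passed in all 3 strains, and CCT8 the only one that passed in none. The falls of CCT6 and CCT2 passed in both deletion strains, and those of CCT3 and CCT5 passed in Δsbp1 and wild type cells. Which genes passed where depends on the setting. With equal totals CCT7 and CCT5 passed in Δsbp1 and wild type cells, CCT2, CCT4 and CCT6 in Δsbp1, CCT3 in wild type cells, and TCP1 and CCT8 in no strain. At an adjusted p under 0.1, CCT8 also passed in Δsbp1. Passing in one strain and not in another does not show a difference between strains, and the differences of the azide responses were therefore tested directly, over all genes.

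The azide response of a deletion strain minus that of the wild type passed for 0 of the 8 genes in either strain, while 4.12% of all genes passed for Δscd6 and 2.23% for Δsbp1. At an unadjusted p under 0.05, 1 of the 8 differed in Δscd6 (CCT7) and 1 in Δsbp1 (CCT6). The share of all genes at that unadjusted threshold is not given here, so these counts have no background. The response of CCT7 in Δscd6 minus that in wild type cells was 0.76 log2 (95% interval 0.13 to 1.39, adjusted p = 0.152 by a normal test on implied standard errors). The response of CCT6 in Δsbp1 minus that in wild type cells was -0.97 (interval -1.90 to -0.04, adjusted p = 0.296 by the same test). With equal totals the CCT7 difference in Δscd6 was 1.00 and passed (adjusted p = 0.0253). The difference was above 0 in 6 of the 8 genes for Δscd6 (median 0.30, all genes 0.05) and below 0 in 6 of the 8 for Δsbp1 (median -0.17, all genes 0.01). Of all genes 45.9% were below 0 for Δscd6 and 49.6% for Δsbp1. Both differences share the wild type libraries.

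Between both deletion strains, the azide response in Δsbp1 minus that in Δscd6 was below 0 for all 8 genes, from -0.71 for CCT7 to -0.24 for CCT2, with a median of -0.52 against -0.04 over all genes. Of all genes 53.1% were below 0. The 8 genes were measured in the same libraries, so their signs are not independent. None of the 8 passed this test, which 5.57% of all genes did. At an unadjusted p under 0.05, 2 of the 8 differed, CCT7 (interval -1.34 to -0.09, adjusted p = 0.200) and CCT5 (-0.59, interval -1.16 to -0.02, adjusted p = 0.266). No share of all genes at this unadjusted threshold stands beside that count. The widest interval was that of CCT6, from -1.48 to 0.38, around a difference of -0.55.

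**Figure D3:**
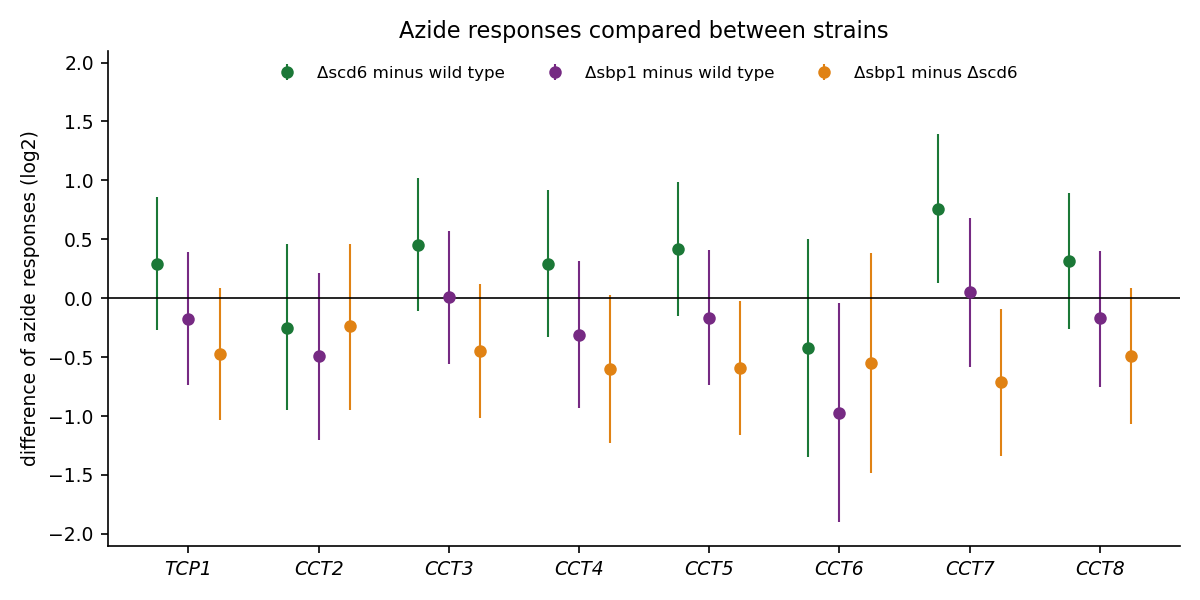
Difference between strains in the azide response (log2) of each TRiC subunit gene, with 95% intervals, for Δscd6 minus wild type, Δsbp1 minus wild type and Δsbp1 minus Δscd6. The interval lies clear of 0 for CCT7 in Δscd6 minus wild type (0.13 to 1.39), CCT6 in Δsbp1 minus wild type (-1.90 to -0.04) and CCT5 and CCT7 in Δsbp1 minus Δscd6, and no difference passed after adjustment over all genes. With equal totals CCT7 in Δscd6 minus wild type would stand at 1.00 and pass (adjusted p = 0.0253).

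Deleting SCD6 or SBP1 left the subunit genes without a passing change in untreated cells. In Δscd6 against wild type 0 of the 8 passed, as did 2.52% of all genes, and in Δsbp1 against wild type 0 of the 8, as did 1.98% of all genes. At an unadjusted p under 0.05 the count was 0 of the 8 in both comparisons, and no share of all genes at that threshold is given. In untreated Δscd6 cells the values ran from -0.40 for CCT7 (95% interval -0.83 to 0.04, adjusted p = 0.313) to 0.28 for CCT6 (-0.37 to 0.93, adjusted p = 0.670) in the authors' deposited table. With equal totals, a shift of -0.28 in this comparison, CCT7 (-0.67, adjusted p = 0.0202), CCT4 (-0.63, 0.0332) and CCT3 (-0.62, 0.0215) were lower in Δscd6 and CCT2, at 0.10 in the authors' deposited table, was at -0.18. The 2.52% above belongs to the authors' scaling, and no share over all genes under equal totals is given here. In untreated Δsbp1 cells the values ran from -0.24 for CCT3 and CCT7 (adjusted p = 0.734 and 0.772) to 0.03 for CCT6 (0.980) in the authors' deposited table.

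In azide, 1 subunit gene differed between a deletion strain and the wild type. In azide-treated Δsbp1 cells CCT6 had 52.1% of the level seen in azide-treated wild type cells (log2 fold change -0.94, 95% interval -1.59 to -0.29, adjusted p = 0.0279) in the authors' deposited table. Of all 6352 genes 756 (11.9%) were lower in this comparison and 590 were higher. The other 7 subunit genes ran from -0.58 for CCT2 (adjusted p = 0.0848) to -0.17 for TCP1 (0.592) in the authors' deposited table, and all 8 lay below 0 (median -0.24, all genes -0.01). Of all genes 51.2% lay below 0 in this comparison. With equal totals the CCT6 call was lost (-0.81, adjusted p = 0.0571). In azide-treated Δscd6 cells 0 of the 8 differed from wild type, while 4.31% of all genes passed. At an unadjusted p under 0.05 the count was 0 as well, with no share of all genes given. The values of the 8 ran from -0.15 for CCT2 (adjusted p = 0.855) to 0.39 for CCT5 (0.362) in the authors' deposited table. The deleted genes themselves were low in their own strain, with SCD6 at 1.29% and 4.45% of wild type (untreated and azide) in Δscd6 and SBP1 at 0.318% and 1.28% in Δsbp1 in the authors' deposited table.

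**Figure D4:**
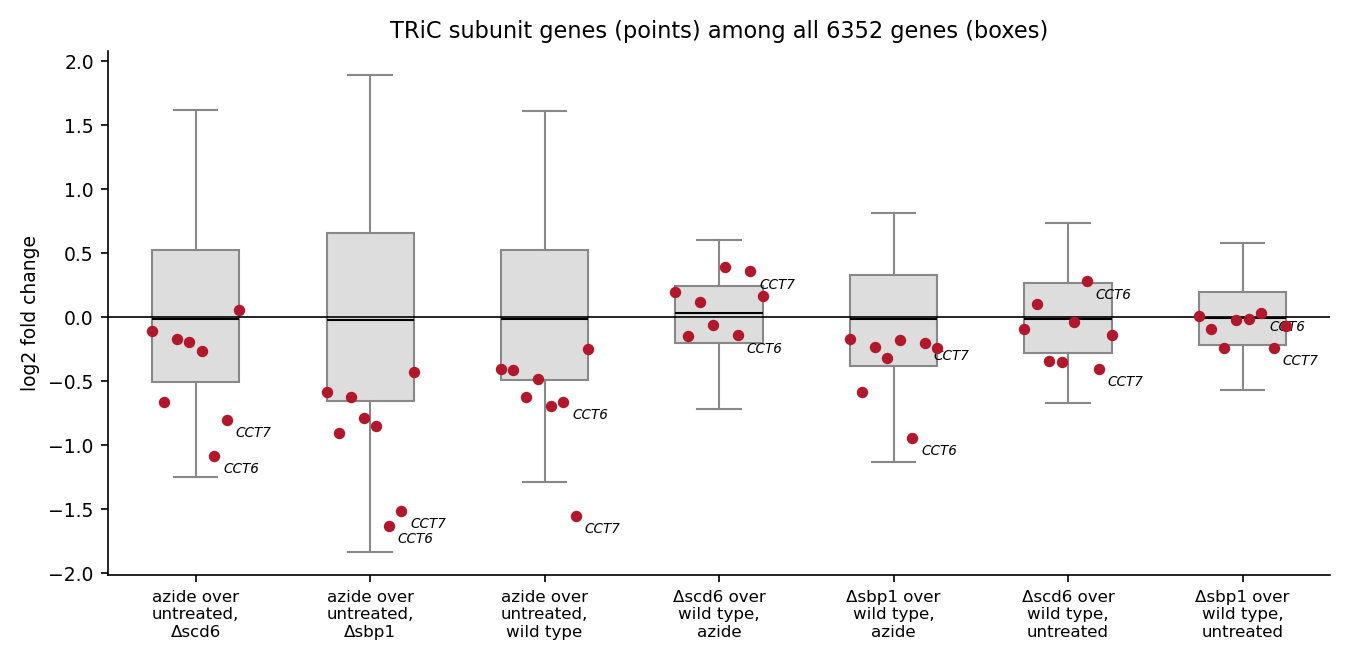
Log2 fold changes of the TRiC subunit genes (points) in each comparison of the authors' deposited table, beside all 6352 genes (boxes from the 25th to the 75th percentile with the median, whiskers from the 5th to the 95th). CCT7 lies below the lower whisker in wild type azide (-1.55 against -1.29), and the points stay within the whiskers in the other comparisons. Equal totals would raise the Δscd6 azide points and the box behind them alike by 0.39.

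Some entries of the tables lie beside a subunit gene by systematic name and are not listed in R64, and their reads may be shared with it. TCP1, CCT4, CCT5 and CCT7 have no such entry. YDR187C, which its name places next to CCT6 on the other strand, gave -1.27 in Δscd6 (adjusted p = 0.0328), -1.63 in Δsbp1 (0.00387) and -0.36 in wild type (0.593) for azide over untreated in the authors' deposited table. These lie beside -1.08, -1.63 and -0.66 for CCT6, the subunit gene with the widest error. YIL142C-A, next to CCT2, gave -0.55 (adjusted p = 0.0805), -1.08 (1.6e-04) and -0.41 (0.195) in the same order in the authors' deposited table, beside -0.66, -0.90 and -0.41 for CCT2. YJL009W, next to CCT8, gave -0.09, -0.45 and -0.36 and passed in none in the authors' deposited table. Without strandedness, which is among the settings not stated, reads of CCT6, CCT2 and CCT8 cannot be told apart from those of such entries where they overlap. YIL141W, on the other side of CCT2, was weakly expressed (mean normalised count 32.5) and gave -0.48 (adjusted p = 0.554), -2.79 (1.1e-04) and -1.92 (0.00521) in the authors' deposited table. YJL015C, beside CCT3, rose in Δsbp1 by 1.47 (adjusted p = 5.0e-04) in the authors' deposited table. For Δsbp1 over wild type, both in azide, YDR187C gave -1.22 (adjusted p = 0.0690) in the authors' deposited table, beside -0.94 for CCT6. In that comparison YIL142C-A gave -0.79 (adjusted p = 0.0183), beside -0.58 for CCT2. YJL009W gave -0.10 (0.821) there, beside -0.24 for CCT8, and YIL141W (-1.37, 0.133) and YJL015C (0.35, 0.527) did not pass.

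Among the substrates of TRiC, the tubulin genes TUB2 and TUB3 fell in all 3 strains. Of 4 cytoskeletal substrates 2 fell in azide in Δscd6 (median -0.79), 3 in Δsbp1 (-1.01) and 2 in wild type cells (-0.53), and none rose. In the authors' scaling 20.4%, 27.4% and 20.6% of all genes fell, in the same order of strains. TUB3, the minor alpha-tubulin, was at -0.95, -1.35 and -0.74 in that order and TUB2, the beta-tubulin, at -0.94, -1.27 and -0.66 in the authors' deposited table, each passing in every strain. TUB1, the major alpha-tubulin, passed in Δsbp1 only (-0.76, adjusted p = 5.1e-04), and actin, ACT1, passed in none (-0.64, -0.64 and -0.12) in the authors' deposited table. With equal totals 1, 3 and 1 of the 4 fell, TUB3 in all 3 strains and TUB2 in Δsbp1 only.

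Of the 6 prefoldin subunit genes 2 fell in Δscd6 (median -0.22), 1 fell and 1 rose in Δsbp1 (0.33) and 1 fell in wild type cells (-0.07). GIM3 fell in all 3 strains (-0.96, -0.83 and -0.61), YKE2 fell in Δscd6 (-0.52, adjusted p = 0.0320) and GIM4 rose in Δsbp1 (0.69, adjusted p = 0.0183) in the authors' deposited table. GIM5, PAC10 and PFD1 passed in no strain. With equal totals the falls did not pass, GIM4 was higher in Δscd6 and 4 of the 6 were higher in Δsbp1, with medians of 0.17, 0.61 and 0.08. That scaling raises the medians over all genes too (-0.02, -0.02 and -0.01 in the authors' scaling), by 0.39, 0.28 and 0.15. Of 6 tubulin folding cofactors, which act on tubulin after TRiC, 1 fell in Δscd6, 2 in Δsbp1 and 0 in wild type cells, with medians of -0.28, -0.30 and -0.23. Of all genes in the authors' scaling, 20.4%, 27.4% and 20.6% fell in these strains and 22.1%, 27.5% and 21.3% rose. Neither the prefoldin nor the cofactor counts were tested against these shares. ALF1 was at -1.40 (adjusted p = 1.4e-05) in Δscd6 and at -0.85 (0.00888) in Δsbp1, and CIN1 at -0.65 (0.0216) in Δsbp1, in the authors' deposited table. CIN2, CIN4, PAC2 and RBL2 passed in no strain. With equal totals the fall of ALF1 in Δscd6 was the only one of these to pass, and PAC2 was higher in both deletion strains (0.89 in Δscd6 and 0.77 in Δsbp1).

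The WD40 substrates, activators of the anaphase-promoting complex and a phosphatase subunit, differed among themselves. CDC55 rose in Δscd6 (0.85, adjusted p = 2.5e-04) and Δsbp1 (1.02, 3.5e-06), CDH1 rose in Δscd6 (0.61, 0.0112), and CDC20 fell in Δsbp1 (-0.69, 0.00171) in the authors' deposited table. None of these 3 genes passed in wild type cells, where the median was 0.24. Among all genes in the authors' scaling, 22.1% rose in Δscd6, 27.5% rose and 27.4% fell in Δsbp1, and 21.3% rose in wild type. With equal totals CDH1 also rose in wild type cells (0.50) and the fall of CDC20 did not pass.

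Other chaperones at the ribosome gave 3 falls of 7 in each strain and no rise, with medians of -0.40 in Δscd6, -0.51 in Δsbp1 and -0.32 in wild type cells. The shares of all genes that fell in the authors' scaling were 20.4%, 27.4% and 20.6% in that order. The Hsp70 genes SSB1 (-1.11, -2.05 and -0.92) and SSB2 (-1.17, -1.92 and -0.94), whose near-identical sequences can share reads, fell in every strain in the authors' deposited table. SSZ1 fell in Δsbp1 (-0.89, adjusted p = 2.5e-04) and wild type cells (-0.52, 0.0498) and EGD1 in Δscd6 (-0.73, 0.0230), while EGD2, ZUO1 and BTT1 passed in no strain, in the authors' deposited table. The mitochondrial chaperonin genes HSP60 and HSP10 fell in Δsbp1 (-1.78 and -0.98) and wild type cells (-1.32 and -1.22) and did not pass in Δscd6 (-0.51 and -0.30) in the authors' deposited table. With equal totals 0 of the 7 ribosome-bound genes fell in Δscd6, 3 fell and 1 rose (BTT1, 0.86, adjusted p = 0.0165) in Δsbp1 and 0 fell in wild type cells, and the 4 mitochondrial calls held.

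Of 15 cytosolic heat shock chaperones 9 rose and 0 fell in Δscd6 (median 0.60), 8 rose and 3 fell in Δsbp1 (0.73), and 7 rose and 4 fell in wild type cells (0.17). Over all genes 22.1% rose and 20.4% fell in Δscd6, 27.5% and 27.4% in Δsbp1, and 21.3% and 20.6% in wild type cells, in the authors' scaling. With equal totals 11 of the 15 rose and 0 fell in Δscd6 (median 0.99), 8 rose and 3 fell in Δsbp1 (1.01), and 7 rose and 3 fell in wild type cells (0.32). No share over all genes is given here for that scaling, which adds the same amount to every gene of a strain. The highest in Δscd6 were HSP42 (5.30) and HSP26 (4.61) in the authors' deposited table. In Δsbp1 HSP42 (4.21) and HSP26 (4.13) were highest and SSA2 (-2.13) and YDJ1 (-1.83) lowest in the authors' deposited table. In wild type cells HSP42 (4.23) and HSP26 (3.69) were highest and SSA2 (-1.65) and YDJ1 (-1.30) lowest in the authors' deposited table.

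**Figure D5:**
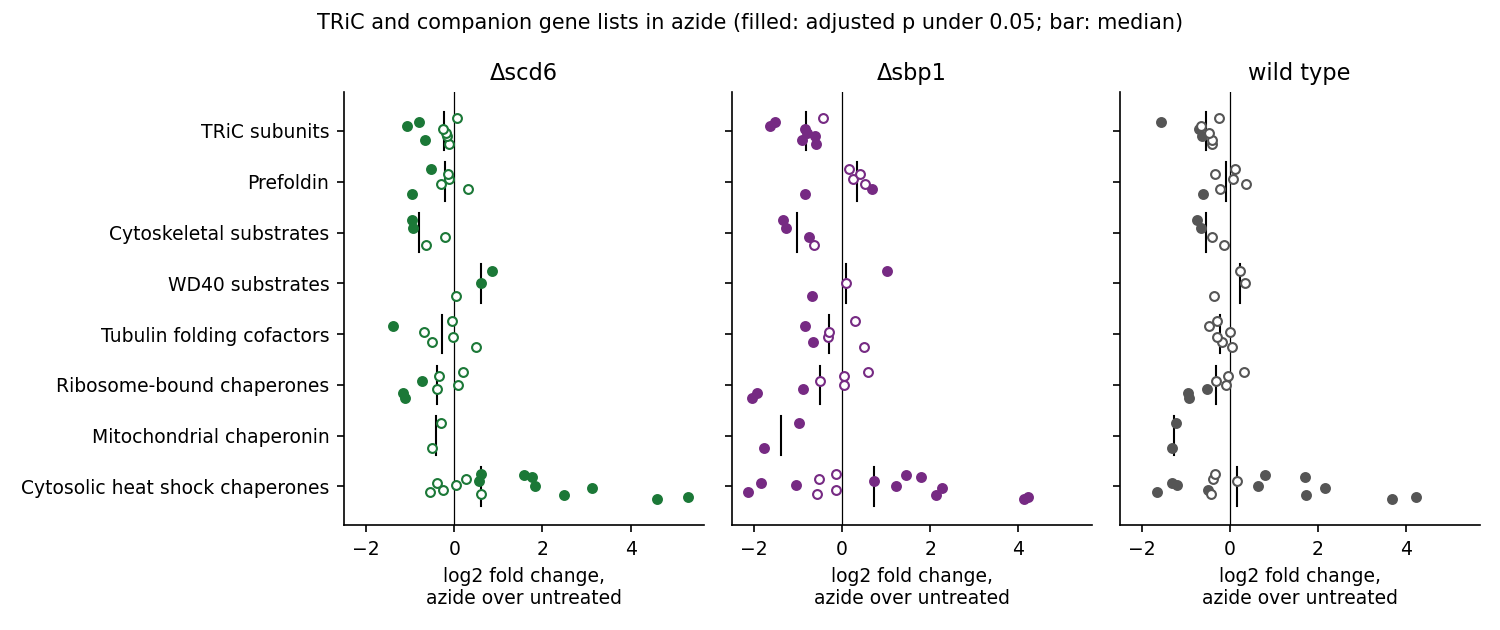
Log2 fold change of azide over untreated for the TRiC subunit genes and 7 lists of partner and comparison genes in Δscd6, Δsbp1 and wild type cells, from the authors' deposited table. Filled points passed an adjusted p of 0.05 and bars mark medians. The TRiC medians are -0.23, -0.82 and -0.55, those of the heat shock chaperones 0.60, 0.73 and 0.17, and equal totals would raise the Δscd6 points by 0.39.

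The genes most like the median TRiC pattern were found by the root mean square difference in log2 fold change over 5 comparisons, the azide responses of the 3 strains and both untreated deletion comparisons, among 5702 genes with a mean normalised count of at least 100. They were COS111, needed for resistance to the drug ciclopirox olamine (0.0523), RPS8A, a ribosomal protein whose copy RPS8B can share its reads (0.0643), ALK2, a haspin-like kinase (0.0667), BOI1, a protein of polar growth (0.0783), and SPP41, a negative regulator of spliceosome genes (0.0801). By the same measure CCT5 (0.0745), CCT4 (0.113), TCP1 (0.142) and CCT3 (0.166) were nearest to their own median, and CCT6 (0.559) and CCT7 (0.619) were farthest from it.

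The GTGGCNA letters were also set against the azide responses of other genes. Of the 434 other genes of the tables with the match before the start codon, 19.8% fell in azide in Δscd6, 28.8% in Δsbp1 and 21.7% in wild type cells. Over all 5754 genes with a promoter the shares were 20.4%, 27.7% and 21.1% in that order.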

How the data were processed

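Total RNA was extracted with hot phenol, and an NEBNext kit was used for the libraries, per the labels' protocols. The submitters' processing notes list STAR 2, Picard, featureCounts and edgeR with no settings. Genome build, annotation, strandedness, normalisation and the test behind the p-values were not given in the sources used here, and were therefore left unstated.

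The data were 7 comparison tables of 6352 genes. Per the file headers they hold a base mean (a signal deposited by the authors, here called the mean normalised count, identical in all tables), a linear fold (a ratio), its log2 fold change and p-values, raw and adjusted. Depth and values per library are not used here, so no library could be left out and no spread per group is given. A standard error was implied as the size of the log2 change divided by the standard normal score that its p-value stands for, where the change was at least 0.02 in size, and intervals of smaller changes use the gene's median over the tables. Differences of azide responses used the larger variance of both routes (azide responses, or comparisons with the wild type), a two-sided normal test and a Benjamini-Hochberg adjustment over all genes. This calculation was run on simulated data with normal errors, which cannot show whether the authors' p-values convert to normal standard errors. The differences set in the simulated data were larger than any found for the members. Group levels assume that fold changes are ratios of group means.

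The members and lists were chosen with earlier results of these data known. Named genes are the 8 members, SCD6 and SBP1, all members of lists of up to 7 genes, the 2 highest and 2 lowest passing genes of the longer list, and the 5 genes most like the members. A further list is not reported here. The entries beside a member and the GTGGCNA letters were chosen after their values or sequences were seen. Of 6352 IDs 5764 matched RefSeq R64. Python 3.11.15, pandas 2.3.3, numpy 2.4.6, scipy 1.17.1, Biopython 1.88 and matplotlib 3.10.9 were used.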

Additional observations from a re-analysis of the deposited data

How the results depend on the processing

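Counts of passing subunit genes were repeated with other thresholds, sizes and scalings and without weakly expressed genes. With a log2 change of at least 1 required as well, 1 gene passed in azide in Δscd6, 2 in Δsbp1 and 1 in wild type, and 0 in Δsbp1 against wild type in azide. With an adjusted p under 0.1, 6 fell in wild type azide and 2 were lower in Δsbp1 against wild type in azide, and with one under 0.01 0 were. With equal totals, 0 passed in azide in Δscd6 and 0 in Δsbp1 against wild type in azide, while 3 were lower in untreated Δscd6 cells and 1 passed for the response of Δscd6 minus wild type. Under that scaling TCP1 (0.28), CCT3 (0.22), CCT4 (0.20) and CCT5 (0.13) changed sign in Δscd6 azide, and CCT2 (-0.18) in untreated Δscd6 against wild type. That scaling adds the same amount to every gene of a comparison. Shares of all genes passing under it are not given here, so counts under it stand without that background. Centring on the median gene, a mean normalised count of at least 100, and variances from the azide responses alone (where they apply) changed no count and no member's call. No paired analysis was possible because the columns carry no values per library, and for the same reason no replicate was left out. The implied standard error of a member (0.202 to 0.339) limits what a single fold change can show, and depth per library is unknown.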
